A study of Mus musculus with 130 samples.

Results

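The replication-dependent histone genes are the clustered genes that supply histones to newly copied DNA. They were taken as every gene of the deposited count table whose symbol starts with Hist1h, Hist2h or Hist4h, which gave 67 of 52550 genes. Histone cluster 1 held 56 of them, on chromosome 13 of the mouse genome (build GRCm38), cluster 2 held 10 on chromosome 3, and cluster 4 held 1 on chromosome 6. By class there were 6 linker histone H1 genes, 19 H2A, 17 H2B, 12 H3 and 13 H4 genes. Genes of the Hist3 group were left out. The RNA came from minced wild-type FVB/NJ embryos that carry FUCCI, a pair of fluorescent proteins of which one marks cells before S phase and the other marks cells from S phase to mitosis. Flow sorting gave gates that the labels call S-G2-M (GR), G1-S (YE), G1 (DR) and G0 (BR), and unsorted cells were sequenced as well. Each of these 5 fractions had 5 libraries, 1 from each of 5 preparations. The preparations were titled WT1 and WT2 (both E10.5), WT3 (E11.5), and 5 and 8 (both E13.5). All groups share the strain and the reporter, and the labels name no other allele or agent. The gates hold all cell types of the embryo together, and it is not stated how many embryos went into each preparation. The main tests have no term for the preparation and count its 5 fractions as separate libraries. Their p-values thus measure the spread between libraries, not between independent preparations. A comparison of E13.5 with E10.5 sets only preparations 5 and 8 against WT1 and WT2.

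A cell makes these histones mainly while it copies its DNA. Their mRNAs differ from other mRNAs of animal cells in that they end in a short stem-loop and mostly carry no poly(A) tail. The stem-loop binding protein Slbp holds that hairpin through processing and translation, and the mRNAs are degraded when DNA synthesis ends. H2A, H2B, H3 and H4 form the core around which DNA is wound, and H1 binds the DNA between cores. The libraries were made from rRNA-depleted total RNA.

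The stem-loop is shown because it sets these mRNAs apart from others. The pattern GGNNNTTNNNANNNCC was searched on the sense strand and kept only where its arms are exact reverse complements. It was found in an annotated transcript of 44 of the 67 genes, and the other 23 had no such match. Some of the 23 have short annotated transcripts, such as Hist1h4k with 312 bases and Hist1h2bl with 381. Whether these reach the end of the mRNA was not tested. In the sequences that follow, capitals mark the stem-loop and lower case marks 5 bases on each side.
Hist1h2bb: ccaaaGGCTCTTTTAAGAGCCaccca
Hist1h3g: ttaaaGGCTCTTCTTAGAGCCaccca
Hist2h2ac: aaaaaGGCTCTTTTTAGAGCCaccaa
Hist1h2ac: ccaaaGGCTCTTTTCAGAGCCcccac
Hist1h4d: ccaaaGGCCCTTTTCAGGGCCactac
Hist1h4b: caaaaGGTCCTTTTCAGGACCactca
The form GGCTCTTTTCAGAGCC occurred in 3 H1, 9 H2A, 7 H2B and 5 H3 genes. All 12 H4 genes with a match had a stem found in no other class, which was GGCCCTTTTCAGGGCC in 7 of them. Hist2h2be, Hist1h2bc, Hist1h1a and Hist1h1b were among the genes without a match in their annotated transcript.

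Promoters are shown because the members moved together between gates. RefSeq promoters, from 250 bases before to 50 bases after the start, were matched for 60 of the 67 genes (build GRCm38.p6). Not matched were Hist2h4, Hist1h3a, Hist1h2bc, Hist1h3f, Hist1h2aj, Hist1h2al and Hist2h2be. Capitals mark TATAAA (the TATA box), CCAAT, ATTTGCAT (the octamer), AAACACA (known from H1 promoters) and GGTCCG (part of an element known from H4 promoters), each on either strand. AAACACA and GGTCCG were chosen after the members' promoters had been seen.
Hist1h1b (H1, chr13:21780576-21780875, minus strand): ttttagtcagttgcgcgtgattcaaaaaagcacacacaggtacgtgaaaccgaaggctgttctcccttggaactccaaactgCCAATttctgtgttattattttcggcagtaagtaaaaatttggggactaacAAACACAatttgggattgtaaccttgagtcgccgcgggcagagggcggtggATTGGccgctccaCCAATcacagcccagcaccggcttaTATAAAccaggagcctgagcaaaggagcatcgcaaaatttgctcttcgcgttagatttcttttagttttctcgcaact
Hist1h2bb (H2B, chr13:23746484-23746783, plus strand): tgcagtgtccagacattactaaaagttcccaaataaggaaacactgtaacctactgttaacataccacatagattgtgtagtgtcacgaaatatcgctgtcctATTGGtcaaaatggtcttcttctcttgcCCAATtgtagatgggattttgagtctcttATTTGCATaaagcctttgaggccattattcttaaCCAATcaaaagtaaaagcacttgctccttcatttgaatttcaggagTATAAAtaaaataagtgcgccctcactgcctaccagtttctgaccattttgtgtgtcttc
Hist1h3e (H3, chr13:23562336-23562635, minus strand): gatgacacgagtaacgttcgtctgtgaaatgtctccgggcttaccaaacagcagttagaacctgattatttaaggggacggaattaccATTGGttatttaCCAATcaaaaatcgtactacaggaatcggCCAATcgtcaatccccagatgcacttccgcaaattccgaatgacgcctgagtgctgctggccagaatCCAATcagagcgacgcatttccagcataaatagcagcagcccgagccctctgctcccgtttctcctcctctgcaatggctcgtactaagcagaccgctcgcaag
Hist1h4d (H4, chr13:23581318-23581617, plus strand): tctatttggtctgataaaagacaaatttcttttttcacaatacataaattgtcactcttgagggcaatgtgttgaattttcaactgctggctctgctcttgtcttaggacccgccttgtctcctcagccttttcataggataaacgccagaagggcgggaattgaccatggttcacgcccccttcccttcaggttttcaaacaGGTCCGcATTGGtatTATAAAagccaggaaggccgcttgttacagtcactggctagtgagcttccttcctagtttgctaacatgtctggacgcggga
The matches differed by class. CCAAT stood in 85.0% of the 60 promoters, against 37.4% of all 32851 RefSeq promoters. It was in all 6 H1, 17 H2A, 15 H2B and 10 H3 promoters and in 3 of 12 H4 promoters. GGTCCG stood in 91.7% of the H4 promoters, all but that of Hist1h4a, against 8.25% of all promoters. AAACACA stood in 83.3% of the H1 promoters, all but that of Hist1h1a, against 7.18% of all promoters. The octamer stood in 35.3% of the H2A and 40.0% of the H2B promoters and in none of the H1, H3 and H4 promoters, against 1.74% of all promoters. TATAAA stood in 56.7% of the members' promoters, against 13.6% of all promoters. A match describes the letters of the window and is no evidence of binding.

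**Figure D1:**
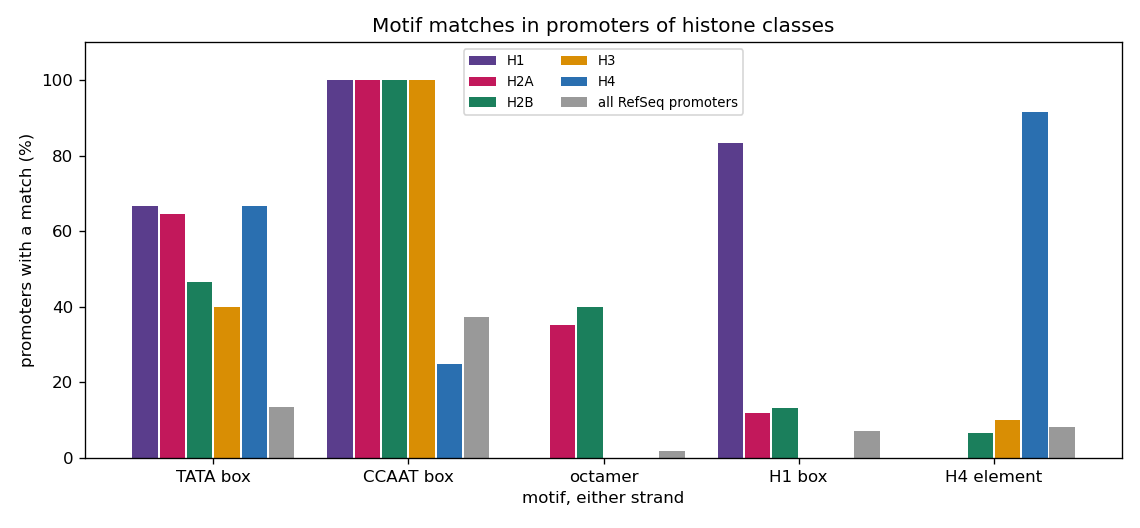
Share of promoters (vertical axis, percent) with at least 1 match on either strand to each of 5 motifs (horizontal axis, where the octamer is ATTTGCAT, the H1 box AAACACA and the H4 element GGTCCG), with a bar for each histone class and 1 for all RefSeq promoters. CCAAT is in every matched H1, H2A, H2B and H3 promoter and in 3 of 12 H4 promoters, of which 91.7% hold GGTCCG.

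Library totals ran from 14.69 M to 58.49 M counts (median 22.85 M). Of the 67 genes, 63 passed the filter on low counts and were tested among 23506 genes, and Hist1h2aa, Hist2h2aa1, Hist1h2ba and Hist2h3c1 did not pass it. Levels are CPM, counts per M counts of the library total after TMM scaling. Changes are log2 changes ± their standard error from edgeR's quasi-likelihood test, called at a Benjamini-Hochberg adjusted p under 0.05 over all tested genes. In 32 of the 67 genes at least 50% of the 50-base words also occur in another member, so that counts of single copies are uncertain. In 20 genes, 17 of them H2A, at least 20% of the exon length lies under annotated exons of the other strand, and in 45 genes, none of them H2A, no exon length does. Whether the authors' counting used strand is not given in the sources used here, and without strand such reads cannot be told apart from those of the other gene.

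S-G2-M cells were set against G0 cells, and every tested histone gene was higher in S-G2-M. Together the 67 genes took 1.87% and 2.14% of all counts in S-G2-M cells of WT1 and WT2, 2.06% in WT3, and 2.01% and 2.51% in 5 and 8. In G0 cells they took 0.0689% and 0.104% in WT1 and WT2, 0.101% in WT3, and 0.0927% and 0.104% in 5 and 8. Within a preparation the summed CPM was 22.7-fold to 28.9-fold higher in S-G2-M than in G0. Of 63 tested members 63 rose and 0 fell, with a median log2 change of 4.83, beside a background of 27.5% of all tested genes higher, 26.6% lower and a median of -0.01. Among the 43 tested members with no exon length under the other strand, 43 rose, with a median of 4.64. In 57 of the 63 the lowest S-G2-M library lay above the highest G0 library. The same count over all tested genes was not made. In these bulk samples a larger share of cells that make histone mRNA and more of it per cell cannot be told apart.

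The gates also differed in cell types and in the genes that check the phase. All 6 G2-M genes (such as Ccnb1 and Plk1) were higher in S-G2-M, with summed levels of 4029 to 5413 CPM in S-G2-M and 43.89 to 120 CPM in G0. All 6 neuronal markers were lower, with 160.7 to 465.8 CPM in S-G2-M and 4413 to 7697 CPM in G0, and 5 of 6 cardiac markers were lower, with 12.99 to 84.6 CPM in S-G2-M and 63.21 to 603.5 CPM in G0. Of the erythroid markers 0 of 6 passed the test, with 78.71 to 240.7 CPM in S-G2-M and 104.6 to 388.5 CPM in G0. Of 5 macrophage markers 1 rose and 1 fell, with 6.565 to 13.11 CPM in S-G2-M and 5.164 to 12.93 CPM in G0, and of 5 hepatocyte markers 1 rose and 1 fell, with 17.52 to 30.71 CPM in S-G2-M and 9.206 to 59.86 CPM in G0. No marker was at 0 in all libraries of a gate, and the part of these cell types in the histone difference was not tested.

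**Figure D2:**
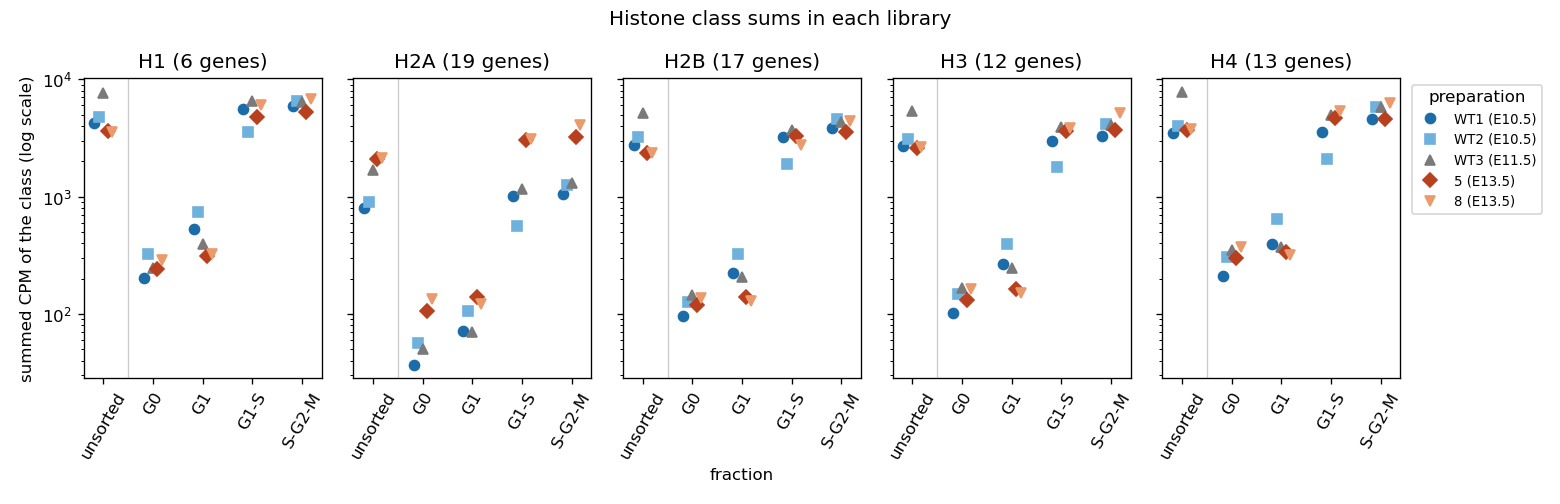
Summed CPM of each histone class (vertical axis, log scale) in the 25 libraries by fraction (horizontal axis), with a marker for each preparation. In each class every G1-S and S-G2-M library lies above every G1 and G0 library.

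The fold of the summed levels varied between the classes. H2B sums were 29.8-fold to 40.3-fold higher in S-G2-M than in G0 over the 5 preparations, H3 sums 24.6-fold to 32.1-fold, H2A sums 22.4-fold to 30.7-fold, H1 sums 20.1-fold to 29.4-fold and H4 sums 15.2-fold to 21.8-fold. The median log2 changes of the members were 5.38 for H2B, 4.96 for H2A, 4.83 for H3, 4.50 for H1 and 4.30 for H4. Over all members H4 was the lowest by both measures. H2B was the highest by the medians and in 4 of the 5 preparations, while in 5 the H2A sum was 30.7-fold higher and the H2B sum 30.1-fold. The order of these classes turned when genes with at least 20% overlap were left out, with a mean log2 ratio of 5.19 for the 2 remaining H2A genes and 5.07 for H2B. As a share of all member counts, H4 held 24.6% ± 1.7 in S-G2-M and 33.7% ± 1.8 in G0 (SD, n = 5 libraries each), and the ranges of 22.4% to 26.6% and 32.0% to 36.6% do not overlap. H2B held 19.0% ± 1.9 in S-G2-M and 13.8% ± 1.1 in G0, with ranges of 16.4% to 20.6% and 12.5% to 15.2%. H1 held 28.3% ± 2.6 in S-G2-M and 28.8% ± 3.4 in G0, and these ranges overlap. The shares are of counts, not scaled to gene length, and the class sums were not tested.

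Hist1h1a, a linker histone gene (ENSMUSG00000049539.3, chromosome 13 from 23763666 to 23764406, plus strand), stood in S-G2-M at 1935 and 2090 CPM in WT1 and WT2, 2310 CPM in WT3, and 1032 and 1259 CPM in 5 and 8. In G0 it stood at 33.8 and 77.75 CPM in WT1 and WT2, 74.52 CPM in WT3, and 27.29 and 32.61 CPM in 5 and 8. The gates do not overlap, and the log2 change was 5.17 ± 0.30 (adjusted p = 1.66e-12). Hist1h1b, which encodes another linker histone, was at 774 to 1205 CPM in S-G2-M and 13.62 to 30.12 CPM in G0, and its log2 change of 5.70 ± 0.33 was the highest of the 6 H1 genes. Hist1h1d changed by 4.97 ± 0.25 and Hist1h1c by 4.03 ± 0.24. Hist1h1t, the testis linker histone, was low throughout, with 2.591 to 5.577 CPM in S-G2-M and 0.09869 to 0.5435 CPM in G0, and rose by 3.56 ± 0.38. Of 3 tested germ cell markers 2 were higher in S-G2-M, with a summed level over 4 markers of 0.7973 to 4.491 CPM in S-G2-M and 0.2596 to 0.6702 CPM in G0, and their part in the Hist1h1t difference was not tested. The testis genes Hist1h2ba and Hist1h2aa were near 0: Hist1h2ba had 38 counts over the 5 S-G2-M libraries and 0 over the 5 G0 libraries, and Hist1h2aa had 20 and 0.

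All 17 tested H2A genes rose, and each has some exon length under exons of the other strand. Hist1h2al, listed as a pseudogene and placed outside the main cluster on chromosome 13 (from 51202727 to 51203065), was among the 3 H2A genes of highest CPM. In S-G2-M it stood at 473.2 and 578.2 CPM in WT1 and WT2, 651.6 CPM in WT3, and 826.9 and 1048 CPM in 5 and 8. In G0 it stood at 26.94 and 36.65 CPM in WT1 and WT2, 29.31 CPM in WT3, and 39.92 and 50.99 CPM in 5 and 8. Every S-G2-M library was above every G0 library, and the log2 change was 4.26 ± 0.24 (adjusted p = 1.32e-12). Hist1h2ab rose by 5.95 ± 0.30 and Hist1h2ak by 5.17 ± 0.29. Hist1h2af had the highest log2 change of all tested members, 6.21, with 35.3% of its exon length under the other strand. Hist1h2ac (5.6% under the other strand) rose by 4.68 ± 0.23 and Hist1h2ae (19.6%) by 5.54 ± 0.31.

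Hist1h2bb, the H2B gene whose promoter is printed above, stood in S-G2-M at 632.7 and 773.5 CPM in WT1 and WT2, 772.9 CPM in WT3, and 420.1 and 549.9 CPM in 5 and 8. Its G0 levels were 11.45 and 19.35 CPM in WT1 and WT2, 19.88 CPM in WT3, and 11.6 and 14.69 CPM in 5 and 8. The gates do not overlap, and the log2 change was 5.34 ± 0.29 (adjusted p = 6.6e-13). Hist1h2bh rose by 5.86 ± 0.26, Hist1h2bk by 5.84 ± 0.29 and Hist1h2bc by 4.52 ± 0.22. The member that changed least was Hist2h2be (ENSMUSG00000068854.7, chromosome 3 from 96221119 to 96223738, plus strand), which encodes the H2B variant known from mouse olfactory neurons. In S-G2-M it stood at 5.126 and 4.252 CPM in WT1 and WT2, 4.551 CPM in WT3, and 8.662 and 8.184 CPM in 5 and 8. In G0 it stood at 3.159 and 2.746 CPM in WT1 and WT2, 2.725 CPM in WT3, and 5.033 and 5.192 CPM in 5 and 8. The gates overlap across preparations, while S-G2-M was the higher in each preparation. Its log2 change of 0.70 ± 0.14 (adjusted p = 0.000179) was the lowest of the 63, and none of its 50-base words occurs in another member.

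Hist1h3e, the H3 gene whose promoter is printed above, stood in S-G2-M at 801 and 1051 CPM in WT1 and WT2, 943.6 CPM in WT3, and 750.7 and 1125 CPM in 5 and 8. Its G0 levels were 42.46 and 56.18 CPM in WT1 and WT2, 49.68 CPM in WT3, and 42.58 and 57.79 CPM in 5 and 8. The gates do not overlap, and the log2 change was 4.23 ± 0.28 (adjusted p = 1.66e-11). Hist1h3c, at 6.02 ± 0.34, and Hist1h3b, at 5.98 ± 0.33, had the highest log2 changes among members with less than 20% of their length under the other strand. Hist1h3g rose by 5.91 ± 0.34 and Hist1h3f by 4.70 ± 0.28. Hist2h3c2, the H3 gene that changed least, was at 2.705 to 3.404 CPM in S-G2-M and 0.7409 to 1.142 CPM in G0, with a log2 change of 1.71 ± 0.24. Hist2h3c1, which lies wholly under Gm20634 of the same strand, had 0 counts in all 25 libraries.

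Hist1h4d, the H4 gene whose promoter is printed above, stood in S-G2-M at 909.6 and 1231 CPM in WT1 and WT2, 1182 CPM in WT3, and 1088 and 1352 CPM in 5 and 8. In G0 it stood at 35.87 and 64.11 CPM in WT1 and WT2, 62.28 CPM in WT3, and 59.02 and 73.42 CPM in 5 and 8. The gates do not overlap, and the log2 change was 4.30 ± 0.27 (adjusted p = 5.3e-12). Hist4h4, the lone gene of cluster 4 (ENSMUSG00000096010.2, chromosome 6 from 136801553 to 136804415, minus strand), was at 398.1 to 902 CPM in S-G2-M and 48.85 to 83.54 CPM in G0. Its log2 change of 3.41 ± 0.26 was the lowest of the H4 class. Hist1h4h rose by 3.82 ± 0.30. Hist1h4a, which alone has the stem GGCCCTTCTCAGGGCC and lacks GGTCCG in its promoter window, rose by 4.01 ± 0.26. Over all classes, the 16 tested genes whose annotated transcript runs at least 300 bases past the stem-loop had a median log2 change of 4.27. It was 5.32 over the 26 whose transcript ends within 300 bases of it. The classes are unevenly spread over this split. Of all members, tested or not, 3 H1, 1 H2A, 2 H2B, 5 H3 and 6 H4 genes run past. Those that end within are 1 H1, 9 H2A, 7 H2B, 4 H3 and 6 H4 genes. The split was not tested, nor was the part of class in it.

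**Figure D3:**
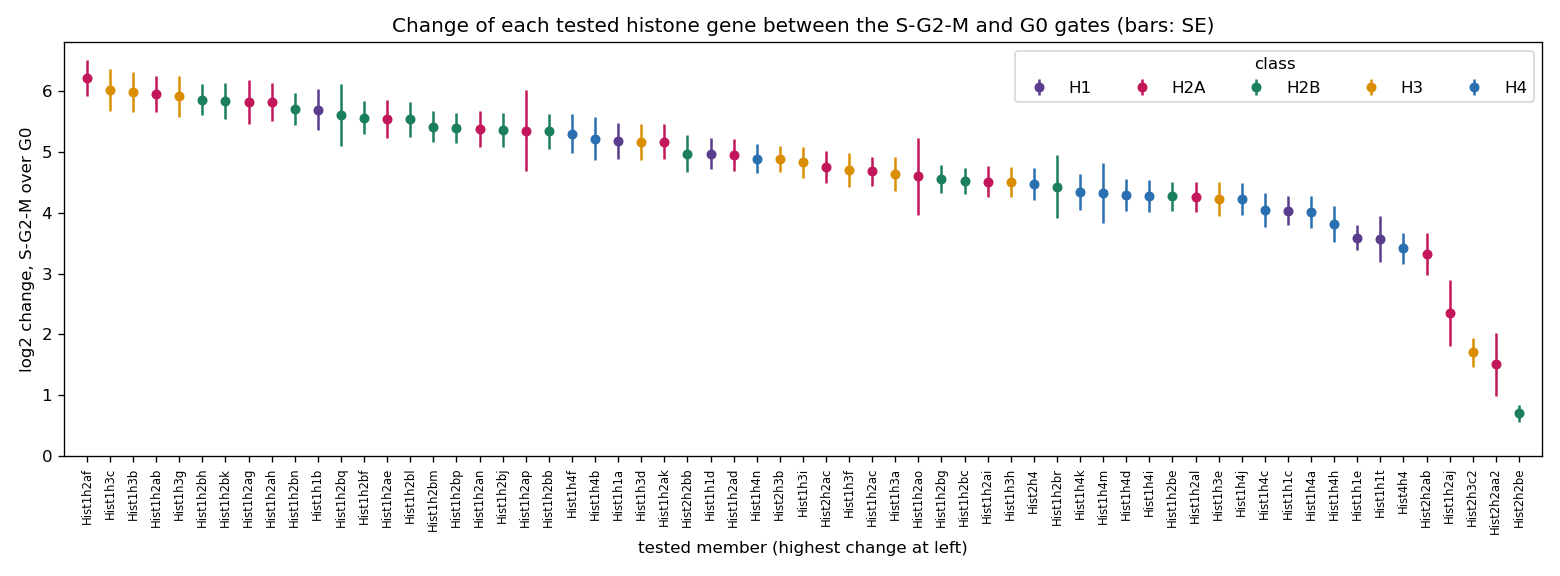
Log2 change of S-G2-M over G0 (vertical axis, bars show the standard error) for the 63 tested histone genes (horizontal axis, highest at left), coloured by class. All values lie above 0, with Hist1h2af highest at 6.21 and Hist2h2be lowest at 0.70.

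G1 cells were set against G0 cells, the other gate before S phase. Of 63 members 34 rose and 1 fell, with a median log2 change of 0.76, beside a background of 18.2% higher, 18.1% lower and a median of 0.01. By class 4 of 6 H1, 8 of 17 H2A, 11 of 16 H2B, 8 of 11 H3 and 3 of 13 H4 genes rose. The ratio differed between preparations. Summed over all members, G1 stood at 2.31-fold and 2.29-fold of G0 in WT1 and WT2, 1.34-fold in WT3, and 1.21-fold and 0.961-fold in 5 and 8. Within WT1, WT2 and WT3 33 members rose, and within 5 and 8 10 did, while 22 of the 63 log2 changes there had the opposite sign to that over all preparations. Without WT1 19 rose in place of 34.

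Hist1h3g stood in G1 at 17.94 and 38.07 CPM in WT1 and WT2, 29.67 CPM in WT3, and 10.43 and 8.202 CPM in 5 and 8. In G0 it stood at 3.907 and 8.542 CPM in WT1 and WT2, 14.3 CPM in WT3, and 4.934 and 5.4 CPM in 5 and 8. G1 was the higher in each preparation, and the log2 change was 1.52 ± 0.30 (adjusted p = 0.000307). Hist1h3b rose by 1.32 ± 0.29, Hist1h1b by 1.26 ± 0.28 and Hist1h4a by 1.11 ± 0.24, while Hist1h4h was at 0.12 ± 0.27 (adjusted p = 0.778). The member that fell was Hist2h3c2, by 1.34 ± 0.27 (adjusted p = 0.000367), with 0.2275 to 0.4882 CPM in G1 and 0.7409 to 1.142 CPM in G0. Its gates do not overlap, although each value rests on few reads, and at least 50% of its 50-base words occur in another member. Hist2h2be was at -0.22 ± 0.14 (adjusted p = 0.248).

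Marker genes differed between these gates as well. All 6 G2-M genes were higher in G1, with 161.5 to 357.1 CPM in G1 and 43.89 to 120 CPM in G0, and 4 of 6 cardiac markers were lower, with 31.84 to 98.43 CPM in G1 and 63.21 to 603.5 CPM in G0. All 6 G1-S phase genes were higher in G1, with 204.3 to 562.5 CPM in G1 and 103.9 to 197.8 CPM in G0. All 6 neuronal markers were lower, with 710 to 1827 CPM in G1 and 4413 to 7697 CPM in G0. Of 6 erythroid markers 5 were higher, with 430.3 to 3017 CPM in G1 and 104.6 to 388.5 CPM in G0, and 5 of 5 macrophage markers were higher, with 27.62 to 54 CPM in G1 and 5.164 to 12.93 CPM in G0. Their part in the histone difference was not tested.

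**Figure D4:**
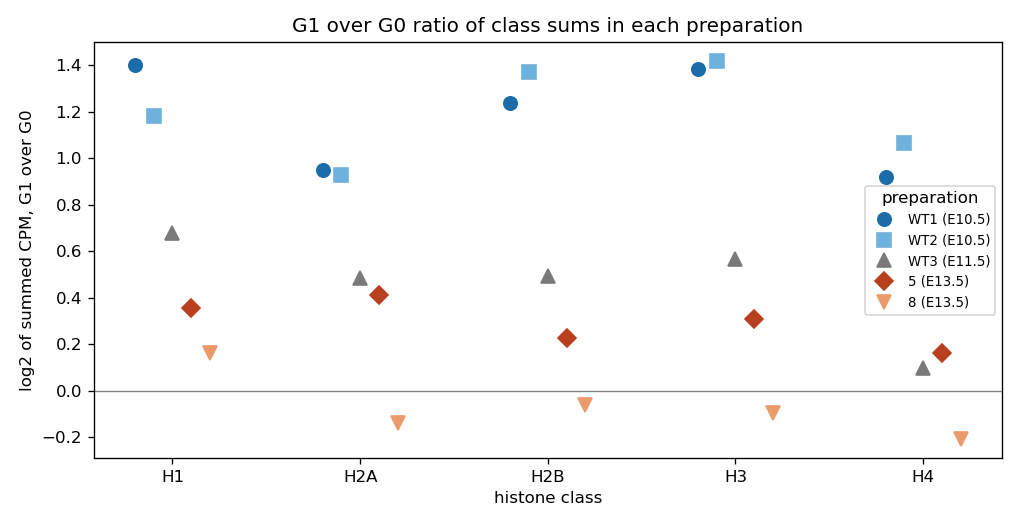
Log2 ratio of the class sums in G1 over G0 (vertical axis) in each preparation, by histone class (horizontal axis). WT1 and WT2 of E10.5 lie highest in every class, and preparation 8 lies below 0 in every class but H1.

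G1-S cells were set against G1 cells, and this was the largest of the steps between neighbouring gates. Of 63 tested members 63 rose and 0 fell, with a median log2 change of 3.81, beside a background of 11.7% higher, 7.18% lower and a median of 0.01. The summed CPM was 10.9-fold and 4.49-fold higher in G1-S than in G1 in WT1 and WT2, 15.7-fold in WT3, and 17.8-fold and 20.1-fold in 5 and 8. Hist1h2bk stood in G1-S at 391.3 and 218.5 CPM in WT1 and WT2, 570.2 CPM in WT3, and 227.3 and 214.9 CPM in 5 and 8. In G1 it stood at 19.05 and 30.58 CPM in WT1 and WT2, 25.09 CPM in WT3, and 6.421 and 6.151 CPM in 5 and 8. The gates do not overlap, and the log2 change was 4.34 ± 0.27 (adjusted p = 8.29e-11). Hist1h3g rose by 4.33 ± 0.32, Hist1h4a by 2.72 ± 0.25 and Hist2h2be by 0.61 ± 0.14 (adjusted p = 0.00388), the lowest of the 63. In 57 of all 67 genes every S-G2-M and G1-S library lay above every G1 and G0 library, a count that was not made over all genes. All 6 cardiac markers were higher in G1-S, with 307 to 994.6 CPM in G1-S and 31.84 to 98.43 CPM in G1, as were 5 of 5 hepatocyte markers, with 17.1 to 1948 CPM in G1-S and 6.454 to 23.99 CPM in G1, and 5 of 5 macrophage markers, with 75.88 to 280.9 CPM in G1-S and 27.62 to 54 CPM in G1. Of 6 neuronal markers 4 were lower, with 336.8 to 776.5 CPM in G1-S and 710 to 1827 CPM in G1. Of 6 erythroid markers 0 were higher and 1 was lower. All 6 G2-M genes were higher, with 1564 to 2758 CPM in G1-S and 161.5 to 357.1 CPM in G1. All 6 G1-S phase genes were higher too, with 794.8 to 1716 CPM in G1-S and 204.3 to 562.5 CPM in G1. The part of these cells and phases was not tested.

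S-G2-M cells were set against G1-S cells, and few of these genes passed the test. Of 63 members 2 rose and 0 fell, 20 had an unadjusted p under 0.05, and the median log2 change was 0.37, beside a background of 7.28% higher, 10.1% lower and a median of 0.00. The mean level was highest in G1-S for 7 of the 67 genes. It was highest in S-G2-M for the others, except Hist2h3c1 and Hist2h2aa1, which had 0 counts in every gate. Hist1h2bh stood in S-G2-M at 188.6 and 215.7 CPM in WT1 and WT2, 189.9 CPM in WT3, and 218.4 and 275.7 CPM in 5 and 8. In G1-S it stood at 128.8 and 79.33 CPM in WT1 and WT2, 143.9 CPM in WT3, and 184.2 and 145.8 CPM in 5 and 8. The gates do not overlap, and the log2 change was 0.69 ± 0.20 (adjusted p = 0.0226). Hist1h4c rose by 0.75 ± 0.25 (adjusted p = 0.0402). The G1-S library of WT2 stood apart: the summed CPM in S-G2-M was 2.25-fold that of G1-S in WT2 and 1.05-fold to 1.27-fold in the other preparations. Without WT1, 5 or 8 1 member was called, without WT2 0 were, without WT3 5 were, and within 5 and 8 14 were. The 6 G2-M genes were all higher in S-G2-M, with a median log2 change of 1.17. All 6 cardiac, 5 of 5 hepatocyte and 5 of 5 macrophage markers were lower in S-G2-M, at the levels given above. So were 5 of 6 erythroid markers, 3 of 6 neuronal markers and 4 of 6 G1-S phase genes. Their part was not tested.

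E13.5 was set against E10.5 within S-G2-M and within G0. Day and preparation set cannot be told apart, since 5 and 8 are the E13.5 preparations and the E10.5 ones carry the title prefix WT. In S-G2-M 25 members rose and 3 fell, beside a background of 18.9% higher and 24.1% lower. In G0 22 rose and 0 fell, beside 20.4% higher and 22.5% lower. Most of these calls were of members with exon length under the other strand. Of 20 such members 18 rose in S-G2-M and 14 in G0. Of the 43 tested members without it, 7 rose and 3 fell in S-G2-M, with a median log2 change of 0.02, and 8 rose and 0 fell in G0, with a median of 0.24. The medians of all tested genes were -0.07 in S-G2-M and -0.04 in G0. Summed over members without such overlap, the E13.5 mean was 0.998-fold of the E10.5 mean in S-G2-M and 1.13-fold in G0. In the other gates it was 0.52-fold in G1 and 1.35-fold in G1-S. For H2A, in which every gene has overlap, it was 3.16-fold in S-G2-M, 2.57-fold in G0, 1.47-fold in G1 and 3.91-fold in G1-S. Whether reads of both sets of preparations were counted in the same way is not given in the sources used here, and a part of counting in these H2A changes was not tested. This split of the members was made after their values had been seen.

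Of 4 members that lie under other-strand exons over their whole length, 3 had counts in each library of 5 and 8 and in no WT-titled library, and Hist2h2aa1 had 3 counts in unsorted cells of 5 and 0 in the other 24 libraries. Hist2h3b, under Gm20628, had 190 to 5562 counts in each of the 10 libraries of 5 and 8 and 0 counts in each of the 15 WT-titled libraries. Hist2h2bb, under the same gene, had 49 to 1676 counts in those 10 and 0 in the 15. Hist2h2aa2 had 6 to 83 counts in the 10 and 0 in the 15. Hist1h4b, with 56.2% of its length covered, had 80 to 3496 counts in the 10 libraries and at most 181 in the 15. Of 21 annotated other-strand genes of members that are in the table, 19 had counts in the libraries of 5 or 8, and 12 of them had no count in any of the 15 WT-titled libraries. Gm20628 had 613 counts over the 10 libraries and 756 over the 15. WT3, of E11.5, was at 0 for the first 3 genes like WT1 and WT2. For these members the title prefix, the overlap, the day and any difference in counting between the sets cannot be told apart.

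**Figure D5:**
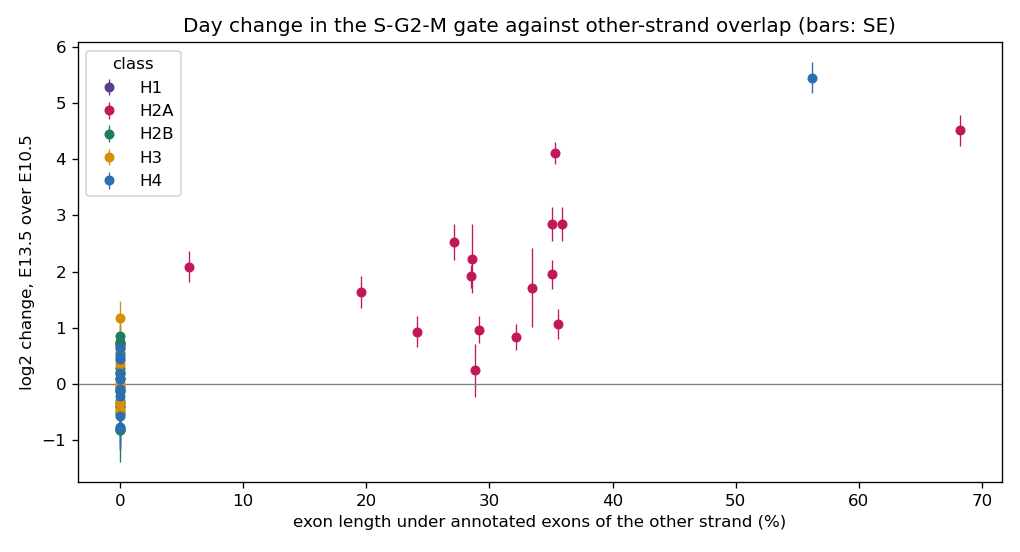
Log2 change of E13.5 over E10.5 in S-G2-M (vertical axis, bars show the standard error) against the share of exon length under annotated exons of the other strand (horizontal axis, percent) for tested members, leaving out Hist2h3b, Hist2h2bb and Hist2h2aa2, which have 0 counts in the WT-titled libraries. Members at 0% lie between -0.81 and 1.18, and all members with overlap lie above 0.

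Among members without overlap, Hist1h3d had the highest change in S-G2-M, with 393.2 and 481.4 CPM at E13.5 and 154.8 and 232.1 CPM at E10.5, a log2 change of 1.18 ± 0.30 (adjusted p = 0.00588). In G0 it was at 12.24 and 12.25 CPM at E13.5 and 2.989 and 6.625 CPM at E10.5, a log2 change of 1.37 ± 0.35 (adjusted p = 0.00553). In both gates its E13.5 libraries were above its E10.5 libraries. Hist2h2be rose by 0.85 ± 0.19 in S-G2-M and by 0.79 ± 0.20 in G0. Hist1h1c, a linker histone gene, rose by 0.71 ± 0.21 in S-G2-M (adjusted p = 0.0129), with 1096 and 1430 CPM at E13.5 and 723.7 and 818.5 CPM at E10.5, and was at 0.36 ± 0.22 in G0 (adjusted p = 0.197). Hist1h2bk fell by 0.81 ± 0.31 in S-G2-M (adjusted p = 0.0484), with 257.9 and 326.3 CPM at E13.5 and 472.8 and 550.8 CPM at E10.5. Hist1h4i fell by 0.79 ± 0.28 (adjusted p = 0.0362) and Hist1h2bp, which lies outside the rule for named genes and was named after its value was seen, by 0.50 ± 0.20 (adjusted p = 0.0492). Among members without overlap, 3 of 15 tested H2B genes rose in S-G2-M and 2 fell. Of 12 such H4 genes 1 rose and 1 fell. The background was 18.9% of all tested genes higher and 24.1% lower. Of the 2 H2A genes with less than 20% overlap, Hist1h2ac rose by 2.08 ± 0.28 and Hist1h2ae by 1.64 ± 0.28 in S-G2-M. Without 5 or without 8, 0 members fell in S-G2-M, and without WT1 or WT2 9 and 7 did. Without WT2 35 members rose in G0, and without 8 14 rose in each gate. In S-G2-M all 6 neuronal, 3 of 5 hepatocyte, 2 of 5 macrophage and 2 of 6 cardiac markers and 3 of 6 G2-M genes were higher at E13.5, and 5 of 6 G1-S phase genes were lower. In G0 3 of 6 neuronal markers, 4 of 6 cardiac markers and 1 of 6 G1-S phase genes were lower at E13.5, and 2 of 5 hepatocyte markers, 2 of 5 macrophage markers and 2 of 6 G2-M genes were higher. Of 6 erythroid markers 2 were higher and 1 lower in S-G2-M, and 2 were higher and 2 lower in G0. Their part was not tested.

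The gate difference itself was compared between the days. For S-G2-M over G0, 0 members differed by edgeR, 3 had an unadjusted p under 0.05 and DESeq2 called 0, with a median difference of -0.11 log2 units, beside a background of 4.23% higher, 4.42% lower and a median of -0.07. For G1 over G0, 8 members were lower at E13.5 and 0 higher, beside a background of 1.04% higher and 2.47% lower. The median of the members was -1.17 log2 units and that of all tested genes -0.10. The 8 were 6 H2B and 2 H2A genes, of which Hist1h2ao had 0 counts in both E13.5 libraries of G1 and both E10.5 libraries of G0. In 7 tested members both libraries of a day and gate were at 0, and the median of the other 56 was -1.17. Hist1h2bn differed by -1.89 ± 0.33 (adjusted p = 0.0036), with 10.72 and 10.55 CPM at E13.5 and 14.44 and 18.77 CPM at E10.5 in G1 and 8.734 and 8.827 CPM at E13.5 and 2.989 and 4.489 CPM at E10.5 in G0. Hist1h2bf differed by -1.77 ± 0.35, Hist1h2be by -1.38 ± 0.36 and Hist1h2bg by -1.28 ± 0.26. Leaving out 5 or 8 leaves a single E13.5 library in each gate, and calls became fewer in the members and over all tested genes. Leaving out WT1 or WT2 leaves a single E10.5 library, and calls became more in both. Whether the 8 calls hold in such fits cannot be judged. Of the 6 G1-S phase genes 4 were lower in the same difference, with a median of -1.18, and their part was not tested.

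Genes that make and process histone mRNAs were compared between S-G2-M and G0, where 27.5% of all tested genes rose and 26.6% fell. Of 4 genes of histone gene transcription 2 rose and 0 fell. Npat, the coactivator of these genes, rose by 0.77 ± 0.08 and Casp8ap2, a protein of the histone locus body, by 0.69 ± 0.11, while Hinfp, the zinc finger factor of H4 promoters, was at -0.00 ± 0.07 (adjusted p = 0.983). Of 10 tested genes of 3′ end processing 8 rose and 1 fell. Slbp rose by 1.54 ± 0.10 (adjusted p = 4.45e-12) and Lsm11, a protein of the U7 particle, fell by 0.26 ± 0.10 (adjusted p = 0.0333). Of 5 genes of turnover and translation 4 rose and 1 fell, and Eri1, the nuclease that trims the stem-loop end, rose by 1.07 ± 0.11. Of 12 histone chaperone genes 10 rose and 0 fell. Asf1b, a chaperone of H3 and H4, rose by 3.82 ± 0.22 and Chaf1a, the large subunit of chromatin assembly factor 1, by 2.20 ± 0.15.

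The replacement and variant histones, which are also used outside replication, were compared in the same way. Of 10 genes 8 rose and 0 fell in S-G2-M over G0, with a median log2 change of 1.40, beside 4.83 for the replication-dependent genes. The background was again 27.5% higher and 26.6% lower. Cenpa, the H3 variant of centromeres, rose by 4.94 ± 0.33 and H2afx, the H2A variant phosphorylated at DNA breaks, by 3.88 ± 0.28. H3f3a, a gene of the replacement histone H3.3, was at 0.14 ± 0.15 (adjusted p = 0.452). In G1-S over G1, 6 of 10 processing genes and 10 of 12 chaperone genes rose, among them Slbp by 1.21 ± 0.09 and Asf1b by 2.46 ± 0.21. The background there was 11.7% of all tested genes higher and 7.18% lower. In S-G2-M over G1-S, 7.28% of all tested genes rose and 10.1% fell. Of 4 transcription genes 1 rose and 2 fell, and of 10 processing genes 1 rose and 1 fell. Of 12 chaperone genes 0 rose and 2 fell, while of 10 replacement and variant histones 5 rose and 0 fell. Among those that fell were Slbp, by 0.32 ± 0.09 (adjusted p = 0.0205), and Npat, by 0.26 ± 0.08. Chaf1b, the middle subunit of chromatin assembly factor 1, fell by 0.72 ± 0.16.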

How the data were processed

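RNA of 25 libraries (5 fractions of 5 preparations) was sequenced after rRNA depletion, purification on a Norgen column kit and Illumina library preparation, per the labels' protocols. The authors deposited raw counts per gene, made with STAR 2.5.3 and HTSeq 0.8.0 on mm10, per the submitters' processing notes. No label or file header names the annotation or the strand setting. The 130 deposited columns are parts of libraries and were summed to 25 libraries. The members and gene lists were chosen with earlier results of these data known.

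Genes were filtered with filterByExpr (minimum count 10, minimum total 15), scaled by TMM and tested with edgeR 4.0.16 in R 4.3.3. Gate comparisons used 1 fit over all libraries with terms for fraction and day. Day comparisons used the means of each fraction and day in the same libraries. Tables were made with Python 3.11.15. The fit was run on simulated data with independent libraries and no preparation effect, which cannot speak to the lack of a preparation term. Library totals of 14.69 M to 58.49 M counts set the precision. Overlaps and 50-base words were taken from the GRCm38 annotation and genome, and members with at least 20% of their exon length under the other strand were set apart. Named genes are, by rule, the 3 of highest mean CPM in each class, the 2 highest and the 2 lowest called changes of each comparison among members that are not set apart and have a mean log2 CPM of at least 0, any member lower in S-G2-M or not called in G1-S over G1, and Hist1h1t, Hist1h2aa and Hist1h2ba. Others named were chosen after their values were seen. Preparations pair the fractions: deviations of WT1 from WT2 correlated between fractions at 0.146 to 0.725 and those of 5 from 8 at 0.25 to 0.567, over 13049 genes. Alternatives were RLE size factors, DESeq2 1.42.0, no filter, other gene sets in the scaling, a replicate block, left-out preparations and members left out for overlap or shared words.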

Additional observations from a re-analysis of the deposited data

Results flagged for a closer look

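In 12 of 105 groups of 5 libraries examined, 1 library lay far from the rest. Chance flags about 1 in 20 groups of independent values, whereas these groups share libraries, the sums hold the single genes, and all 12 come from 2 libraries. In unsorted cells the distant library was that of WT3 (E11.5). It stood at 7640 CPM for the H1 sum, 5405 CPM for the H3 sum, 7782 CPM for the H4 sum and 27690 CPM for all members. Single genes of the same library were Hist1h2bc at 569.9 CPM, Hist1h3g at 736.9 CPM, Hist1h4d at 1470 CPM, Hist1h4h at 1004 CPM and Hist4h4 at 1349 CPM. Its TMM factor of 0.806 was the lowest of all libraries, which raises its CPM. Without that scaling, members not set apart took 1.09% to 1.45% of counts in the other unsorted libraries and 2.1% in that of WT3. Genes outside the members also stood highest there among unsorted libraries, such as the histone chaperone sum at 3197 CPM, while the neuronal sum, at 911.8 CPM, did not. In G1 the distant library was that of WT2 (E10.5), at 642.4 CPM for the H4 sum, 83.18 CPM for Hist1h4h and 116.7 CPM for Hist4h4.

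For 8 members the G1 over G0 change differed between E13.5 and E10.5 by edgeR's test of the difference, lower at E13.5 in each. On the log2 scale the differences were -1.383 for Hist1h2be, -1.769 for Hist1h2bf, -1.281 for Hist1h2bg, -1.387 for Hist1h2bm, -1.893 for Hist1h2bn, -1.612 for Hist1h2bp, -2.185 for Hist1h2ag and -8.53 for Hist1h2ao. The last 2 are H2A genes set apart for other-strand overlap. Hist1h2ao had 0 counts in both E13.5 libraries of G1 and both E10.5 libraries of G0, so the size of its difference cannot be read, and its other libraries of these gates and days had 1 to 4 counts. Without preparation 5 or without 8, a single E13.5 library is left in each gate, and calls became fewer over all tested genes too. Whether these differences hold there cannot be judged.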

How the results depend on the processing

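Every tested member stayed higher in S-G2-M than in G0 or was not called, and none was called lower, in all alternatives run. Leaving out members with at least 50% of their 50-base words shared left 32 called in S-G2-M over G0 and 32 in G1-S over G1, and 18 higher and 0 lower in G1 over G0. Within 5 and 8 alone, 10 members were higher in G1 than in G0 and 14 in S-G2-M than in G1-S, and 22 of 63 log2 changes of G1 over G0 had the opposite sign, none of them called there. Of these, 4 had been called over all preparations, namely Hist1h2bp and 3 that the rule for named genes holds: Hist1h2ak, G1 over G0 (-0.07094), Hist1h2bg, G1 over G0 (-0.04884), and Hist1h3f, G1 over G0 (-0.04099). The cause was not tested. With no filter on low counts, 33 members were higher in S-G2-M than in G1-S. In E13.5 over E10.5 it gave 5 lower in G0 and 8 lower in S-G2-M. In the day differences it gave 2 lower for S-G2-M over G0 and 42 lower for G1 over G0. RLE factors gave 1 lower in each gate between the days. DESeq2 gave 2 lower in G0 between the days and 22 lower in the day difference of G1 over G0. Leaving out members with any other-strand overlap, an alternative added after seeing the data, left 8 higher in G0 and 7 higher in S-G2-M at E13.5.

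Leaving out each preparation in turn gave 19 to 35 higher and 1 to 2 lower in G1 over G0, and 0 to 5 higher in S-G2-M over G1-S. Between the days it gave 14 to 35 higher and 0 to 8 lower in G0, and 14 to 34 higher and 0 to 9 lower in S-G2-M. For the day differences it gave 0 to 1 higher and 0 to 3 lower for S-G2-M over G0, and 0 to 30 lower for G1 over G0. A day left with 1 preparation is assumed to vary like the other groups. The replicate block (preparation as a term) was not run for E13.5 over E10.5 in G0 or in S-G2-M, since each preparation is of a single day. In the other comparisons it changed no count of calls but that of the day difference of G1 over G0, 11 lower in place of 8. The H1 class sum, log2 of S-G2-M over G0, was 4.58, or 4.82 per kb of exon. H2A was 4.78, or 5.19 without genes set apart, which put its mean above that of H2B, though not in WT2 or WT3. For the median H2A member it was 5.12. H2B was 5.07, or 5.30 per kb and 5.56 for the median member. The H3 class sum, log2 of S-G2-M over G0, was 4.84 and that of H4 4.15, or 5.286 and 4.53 for the median member. Depth limits Hist1h2aa and Hist1h2ba, with at most 38 counts in a gate.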
